A study of Mus musculus with 6 samples.

Results

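The insulin granule exocytosis machinery was examined as a module of 51 genes among the 16640 genes counted in MIN6 cells, a mouse pancreatic β-cell line derived from an insulinoma. Of these 51 genes, 34 were listed by name for their parts in docking, priming and fusing granules, and 17 were all genes whose symbol begins with Syt and a digit, the synaptotagmins. *Thada*-activated cells were a stable line that carried lentiviral dCas9-VP64 and a guide RNA to the promoter of *Thada* with the MS2-P65-HSF1 activator, which raises transcription of the endogenous gene without cutting DNA. Control cells carried dCas9 and a non-targeting guide RNA from lentiviruses. Whether the activated line was a single clone is not stated in the sources used here. Each condition had 3 libraries, numbered 1, 2 and 3. Library totals ranged from 17166511 to 17727004 counts, so that a single count was worth from 0.0563 to 0.0586 CPM (counts scaled to a common effective library size). The module took between 0.691% and 0.822% of the counts of a library. Values below are listed for replicates 1, 2 and 3 in that order.

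Insulin is stored in dense-core granules that fuse with the plasma membrane when calcium enters the β-cell. Fusion is driven by SNARE proteins, of which VAMPs sit on the granule and syntaxins with SNAP-25 on the target membrane. Rab GTPases and their effectors bring granules to the membrane, Munc18, Munc13, RIM and CAPS proteins dock and prime them, and synaptotagmins and Doc2 proteins sense calcium while complexins hold or promote the assembled SNAREs.

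*Thada*, the activated gene, was at 28.1, 28.9 and 17.2 CPM in control cells and at 57.3, 56.2 and 49.1 CPM in *Thada*-activated cells. All activated libraries were above all control libraries, and the log2 fold change was 1.13 (standard error 0.22, n = 3 per condition). In edgeR's quasi-likelihood test the adjusted p of *Thada* was 1 without a term for the replicate number and 0.00041 with it as a block. In each condition the library numbered 3 differed from those numbered 1 and 2, and the first principal component, which separated the 2 sets, held 85.6% of the variance between libraries. *Ins2* took 6.37%, 5.65% and 10.2% of the counts in control libraries and 6.44%, 6.29% and 8.36% in activated libraries, with the highest shares in replicate 3. Nothing in the labels states that the replicates were separate cultures. The authors' reporting summary gives at least 3 independent experiments for in vitro work, but does not name these libraries. The p-values thus measure the spread between these samples, which may be technical.

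The β-cell label was checked with 10 marker genes. *Ins2* had the highest FPKM (fragments scaled by transcript length and library depth, as deposited) of the 10, whereas *Slc2a2*, which encodes the glucose transporter of rodent β-cells, was near the floor at 0.0586, 0.233 and 0.0574 CPM in control and 0.169, 0.173 and 0.512 CPM in activated libraries. Of 18 markers of other pancreatic cells, 13 were in the tables. Their summed FPKM was 435, 380 and 259 in control and 417, 386 and 262 in activated libraries, and *Sst* was the most abundant of them. Counts of *Ghrl*, *Cela2a*, *Amy2a5*, *Cdh5* and *Adgre1* were at or under 3 in every library. The sum was lower in replicate 3, as was *Sst*, at 156, 129 and 69.0 CPM in control and 143, 131 and 58.0 CPM in activated libraries, whereas *Ppy* and *Col1a1* were called higher there (adjusted p under 0.05 and a fold change over 1.5 in edgeR), at 0.70 and 1.28 on the log2 scale. A duct marker, *Krt19*, at 0.527, 0.524 and 0.344 CPM in control and 2.365, 1.495 and 1.024 CPM in activated libraries, was called lower in replicate 3 at -0.83. It was also above all control libraries in all activated libraries, with a log2 fold change of 1.78 (standard error 0.32) and an adjusted p of 0.0548 in edgeR with the block. These values rest on 9, 9 and 6 counts in control and 42, 26 and 18 counts in activated libraries. The other duct marker, *Muc1*, was at 1.11, 1.16 and 1.03 CPM in control and 1.01, 1.32 and 2.16 CPM in activated libraries. Its conditions overlapped, and in replicate 3 it went the other way, at 0.45 on the log2 scale, and was not called. *Ucn3*, a marker of mature β-cells, was at 26.6, 26.9 and 10.4 CPM in control and 37.7, 35.9 and 16.6 CPM in activated libraries. It was higher in activated cells in 3 of 3 pairs, though the conditions overlapped, and with the block its log2 fold change was 0.52 (standard error 0.09) at an adjusted p of 0.0337 in edgeR, under the fold threshold. Of the β-cell genes, *Pdx1*, *Slc30a8*, *Ucn3* and *Mafa* were called lower in replicate 3, at -1.03, -0.96, -1.24 and -0.61, and *Ins1* was called higher, at 0.82. *Pdx1* was at 233, 205 and 106 CPM in control and 229, 222 and 112 CPM in activated libraries, and *Ins1* was at 2672, 2257 and 4647 CPM in control and 2928, 2718 and 4646 CPM in activated libraries, in each of which replicate 3 lay apart from the others. The part of these marker differences in the results below was not tested. In bulk RNA, fewer cells of a type and less RNA per cell cannot be told apart.

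Levels of the isoforms within each family were compared in FPKM, which corrects for transcript length. Among the syntaxins of the target membrane, *Stx4a*, which acts in fusion at the plasma membrane, was at 22.8, 21.2 and 24.3 FPKM in control and 20.6, 22.1 and 27.6 FPKM in activated cells. It held 52.6% ± 2.12 (SD, n = 6) of the FPKM summed over *Stx1a*, *Stx3* and *Stx4a*, and its lowest library was above the highest library of *Stx3*. *Stx3* was above *Stx1a*, the syntaxin of the neuronal fusion complex, in 6 of 6 libraries, but their ranges over libraries overlapped. By counts without the length correction *Stx3* led with 45.1% of the family and *Stx4a* held 34.4%, so the leading syntaxin depended on the length scaling.

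Of the SNAP-25 family, *Snap25*, which supplies helices of the target-membrane complex, was at 109, 116 and 49.7 FPKM in control and 111, 110 and 77.0 FPKM in activated cells. Its share of the sum with *Snap23*, the widely expressed relative, was 88.5% on average in replicates 1 and 2 and 74.9% in replicate 3. *Snap25* was above *Snap23* in 6 of 6 libraries, and replicate 3 was the lowest of each condition. The relative *Snap47*, which is outside the module and was chosen after its values were seen, was at 58.2, 58.4 and 75.7 FPKM in control and 62.4, 62.5 and 73.2 FPKM in activated cells, above *Snap25* in control replicate 3 only. *Vamp2*, the granule SNARE of regulated secretion, was at 108, 102 and 70.2 FPKM in control and 103, 106 and 88.6 FPKM in activated cells. It held 53.5% ± 1.92 (SD, n = 6) of the FPKM summed over *Vamp2*, *Vamp3* and *Vamp8*, with 32.9% for *Vamp8* and 13.6% for *Vamp3*, and this order held in 6 of 6 libraries. By counts *Vamp2* led with 69.4%, but *Vamp3* (17.1%) was above *Vamp8* (13.4%), so the order of these 2 genes depended on the length scaling. *Vamp4*, which is outside the module, was at 21.8, 23.2 and 37.8 FPKM in control and 22.7, 21.2 and 41.7 FPKM in activated cells, below *Vamp3* in replicates 1 and 2 and above it in replicate 3. *Napa* (α-SNAP), which recruits the ATPase *Nsf* to take used SNARE complexes apart, averaged 162 FPKM and *Nsf* averaged 59.3 FPKM.

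Munc18 proteins bind syntaxins and guide SNARE assembly. *Stxbp2* (Munc18-2) was at 41.3, 39.1 and 37.4 FPKM in control and 42.5, 40.8 and 40.4 FPKM in activated cells, and was the higher of *Stxbp2* and *Stxbp3* (Munc18c) in 6 of 6 libraries, with 82.8% ± 3.31 (SD, n = 6) of their sum. *Stxbp5* (tomosyn), which competes for SNARE binding, averaged 17.98 FPKM.

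Among the priming proteins, *Rimbp2*, which links RIM proteins to calcium channels, had the highest mean at 45.3 FPKM. *Unc13a* (Munc13-1), which opens syntaxin for SNARE assembly, was at 31.1, 30.3 and 13.5 FPKM in control and 27.6, 29.4 and 16.6 FPKM in activated cells, and its lowest library was above the highest library of *Unc13b*. Its share of the pair was 80.1% in replicates 1 and 2 and 67.8% in replicate 3. *Cadps* (CAPS1), a priming factor of dense-core granules, held 99.7% of its family since *Cadps2* had at most 2 counts in any library. *Rims2*, a Rab3-binding scaffold, averaged 8.58 FPKM, whereas *Rims1* had at most 1 count in any library, and *Rims3*, which is outside the module, was at 7.31, 7.68 and 14.7 FPKM in control and 7.25, 7.65 and 12.6 FPKM in activated cells, above *Rims2* in replicate 3 only. Of the complexins, *Cplx2* was at 50.4, 52.3 and 16.4 FPKM in control and 53.1, 52.7 and 34.7 FPKM in activated cells. It led *Cplx1* in every library, with 88.6% of the pair in replicates 1 and 2, 59.3% in control replicate 3 and 75.1% in activated replicate 3.

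*Syt13*, an atypical synaptotagmin that lacks the residues for calcium binding, had the highest mean of the 17 synaptotagmins. It was at 170, 173 and 83.7 FPKM in control and 178, 174 and 103 FPKM in activated cells. *Syt4*, another synaptotagmin with weak calcium binding, was at 73.5, 80.9 and 107 FPKM in control and 69.5, 69.1 and 101 FPKM in activated cells. *Syt7*, a high-affinity calcium sensor of insulin secretion, was at 36.8, 38.3 and 52.1 FPKM in control and 45.9, 46.2 and 66.6 FPKM in activated cells. *Syt13* was low in replicate 3 whereas *Syt4* and *Syt7* were high there, so the order changed. *Syt13* held 42.5% of the synaptotagmin FPKM in replicates 1 and 2 and 26.6% in replicate 3, *Syt4* held 17.95% and 29.8%, and *Syt4* was above *Syt13* in control replicate 3 only (32.1% against 25.1%), with 27.5% against 28.2% in activated replicate 3. *Syt11* followed *Syt7* in 6 of 6 libraries with a mean of 33.5 FPKM, although the ranges of these 2 genes over libraries overlapped. *Syt9*, a fast calcium sensor in β-cells, averaged 13.8 FPKM, and *Syt5* was above *Syt14* in replicates 1 and 2, with means of 13.5 and 11.8 FPKM, and below it in replicate 3, with means of 6.23 and 9.63 FPKM. *Syt1* and *Syt2*, the fast sensors of neurons, averaged 6.62 and 8.87 FPKM in replicates 1 and 2 and 12.6 and 5.50 FPKM in replicate 3. *Syt6*, *Syt8*, *Syt10* and *Syt15* had at most 2 counts in any library and *Syt16* had at most 8. A library with 0 counts of a gene still allows up to 3 counts, or from 0.169 to 0.176 CPM.

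Of the Rab3 GTPases, which tether granules, *Rab3a* was at 206, 200 and 216 FPKM in control and 197, 201 and 205 FPKM in activated cells. It held 82.6% ± 1.11 (SD, n = 6) of the FPKM of *Rab3a*, *Rab3b* and *Rab3d* in 6 libraries that lay close together. By counts without the length correction *Rab3a* still led, with 62.9%, and *Rab3d* held 33.0%, so the size of its lead depended on the length scaling. Among the Rab effectors *Rph3al* (Noc2), which binds Rab3 and Rab27 on the granule, had the highest mean at 93.5 FPKM, followed by *Sytl4* (granuphilin), a Rab27 effector that docks granules, at 51.3 FPKM. Of the granule membrane proteins, *Ptprn* (IA-2) averaged 531 FPKM, the highest level of the module, and held 70.0% ± 4.22 (SD, n = 6) of its sum with *Ptprn2* (IA-2β). *Sv2a*, a transporter-like protein of secretory vesicles, averaged 59.2 FPKM.

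**Figure D1:**
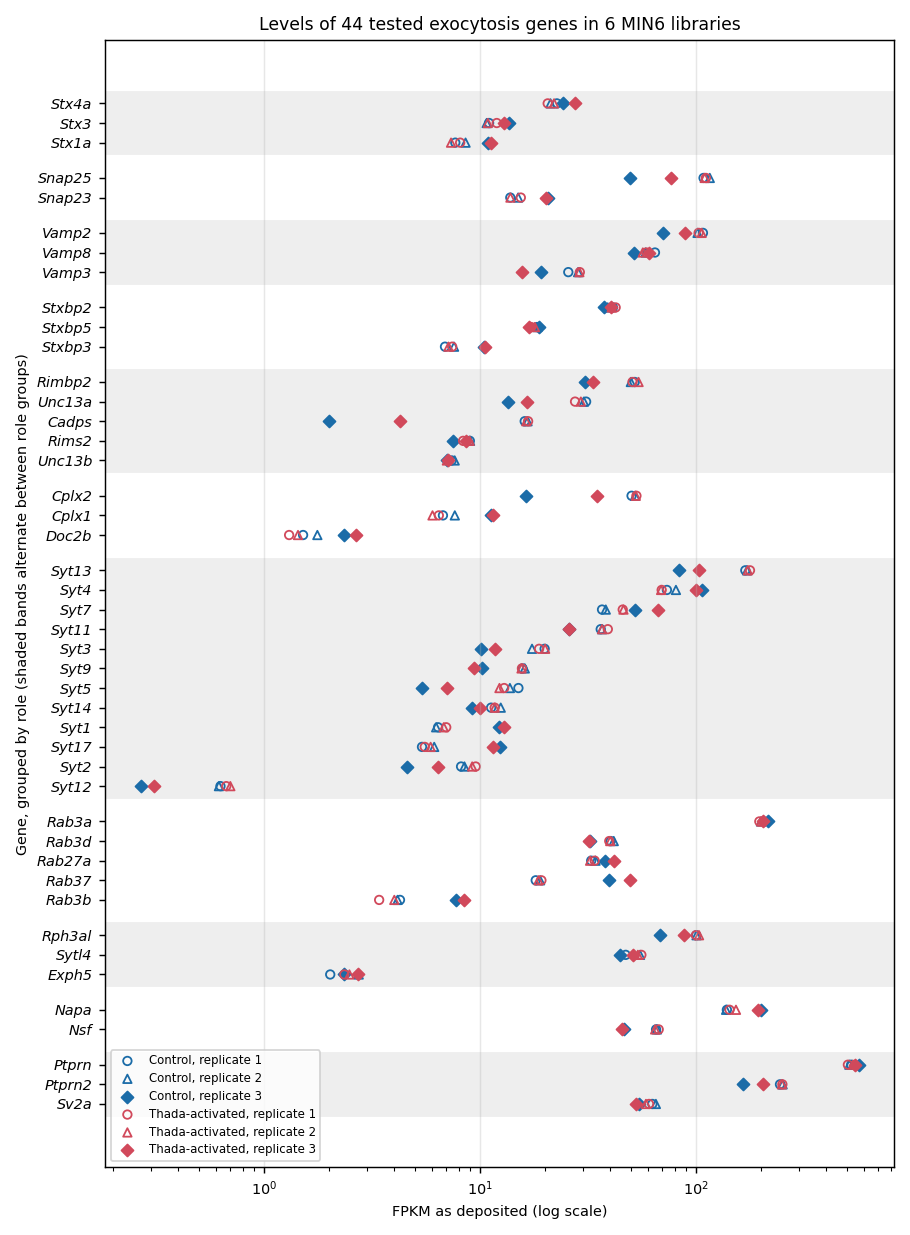
Deposited FPKM (log scale, x axis) of the 44 exocytosis genes that passed the filter on low counts, grouped by role (y axis), with a symbol for each of the 6 libraries. Filled diamonds mark replicate 3 and open symbols replicates 1 and 2, and control and *Thada*-activated libraries are in different colours. *Ptprn* had the highest mean, at 531 FPKM, and *Cadps*, *Cplx2*, *Snap25* and *Syt13* were lower in both replicate 3 libraries than in the other 4.

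The comparison of *Thada*-activated with control cells asked whether expression of this machinery differed when *Thada* was raised. Of the 51 genes, 44 passed the filter on low counts and were tested with 12516 genes in all. A gene was called at an adjusted p under 0.05 over all tested genes with a fold change over 1.5. Without a block 0 of 44 were called and 0 had an unadjusted p under 0.05 in edgeR, where 0 of 12516 genes (0%) were called and 101 (0.807%) had such a p. DESeq2 also called 0 of the 44, and 5 of all tested genes. With the replicate number as a block 0 of 44 were called by edgeR, against 19 of all genes (0.152%), and 3 of 44 had an unadjusted p under 0.05 (6.82%), against 1302 (10.4%) of all genes. Without the fold threshold the blocked fit held 0 of the 44 genes and 28 of all genes (0.224%). None of the 44 genes had conditions that did not overlap over the 3 libraries, against 676 of all genes (5.4%). In 3 of 3 pairs 12 of the 44 differed in the same direction, 6 upward and 6 downward. No share over all tested genes was taken for this last count, so nothing about the 44 genes is read from it. The median log2 fold change of the 44 genes was 0.02 without the block and 0.02 with it, against -0.00 for all tested genes in both fits.

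The gene with the lowest p in the blocked fit was *Syt7* (chr19:10388802-10453181 in GRCm38.p6), which was at 236, 242 and 329 CPM in control and 290, 292 and 408 CPM in activated cells. Activated libraries were higher in 3 of 3 pairs, but activated replicates 1 and 2 stayed below control replicate 3, so the conditions overlapped. With the block the log2 fold change was 0.29 (standard error 0.06) and the adjusted p from edgeR was 0.0727. Over its alternatives the adjusted p of *Syt7* ranged from 6.12e-05, without both replicate 3 libraries, to 1, and its log2 fold change from 0.11 to 0.47, below the fold threshold in every fit. The adjusted p was under 0.05 with replicate 3 as a batch term, without both replicate 3 libraries (with or without the block), and in DESeq2 with the block.

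*Syt2* was at 50.9, 51.2 and 29.3 CPM in control and 55.2, 57.1 and 39.5 CPM in activated cells. *Syt4* was at 278, 301 and 406 CPM in control and 259, 258 and 371 CPM in activated cells. *Syt2* was higher and *Syt4* lower in activated cells in 3 of 3 pairs, with log2 fold changes of 0.23 (standard error 0.08) and -0.15 (standard error 0.06) with the block, and their unadjusted p-values from edgeR were 0.0125 and 0.0252. Neither passed after adjustment over all genes, where edgeR gave 0.329 and 0.395 in this fit, and over the alternatives the adjusted p ranged from 0.174 to 1 for *Syt2* and from 0.0530 to 1 for *Syt4*. The other genes of the lowest p-values were *Sytl4*, *Sv2a*, *Syt13*, *Rph3al* and *Rab37*, with log2 fold changes in the blocked fit of 0.13, -0.10, 0.11, 0.12 and 0.12. Of these 5 genes *Sv2a* was lower and *Syt13* higher in activated cells in 3 of 3 pairs, and the direction of the other 3 differed between pairs. *Sv2a* was at 239, 245 and 207 CPM in control and 228, 221 and 196 CPM in activated cells, which overlapped. Syntaxins lay within -0.05 and 0.02 on the log2 scale in the blocked fit, vesicle SNAREs within -0.04 and 0.10, and priming and active-zone genes within -0.07 and 0.25.

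**Figure D2:**
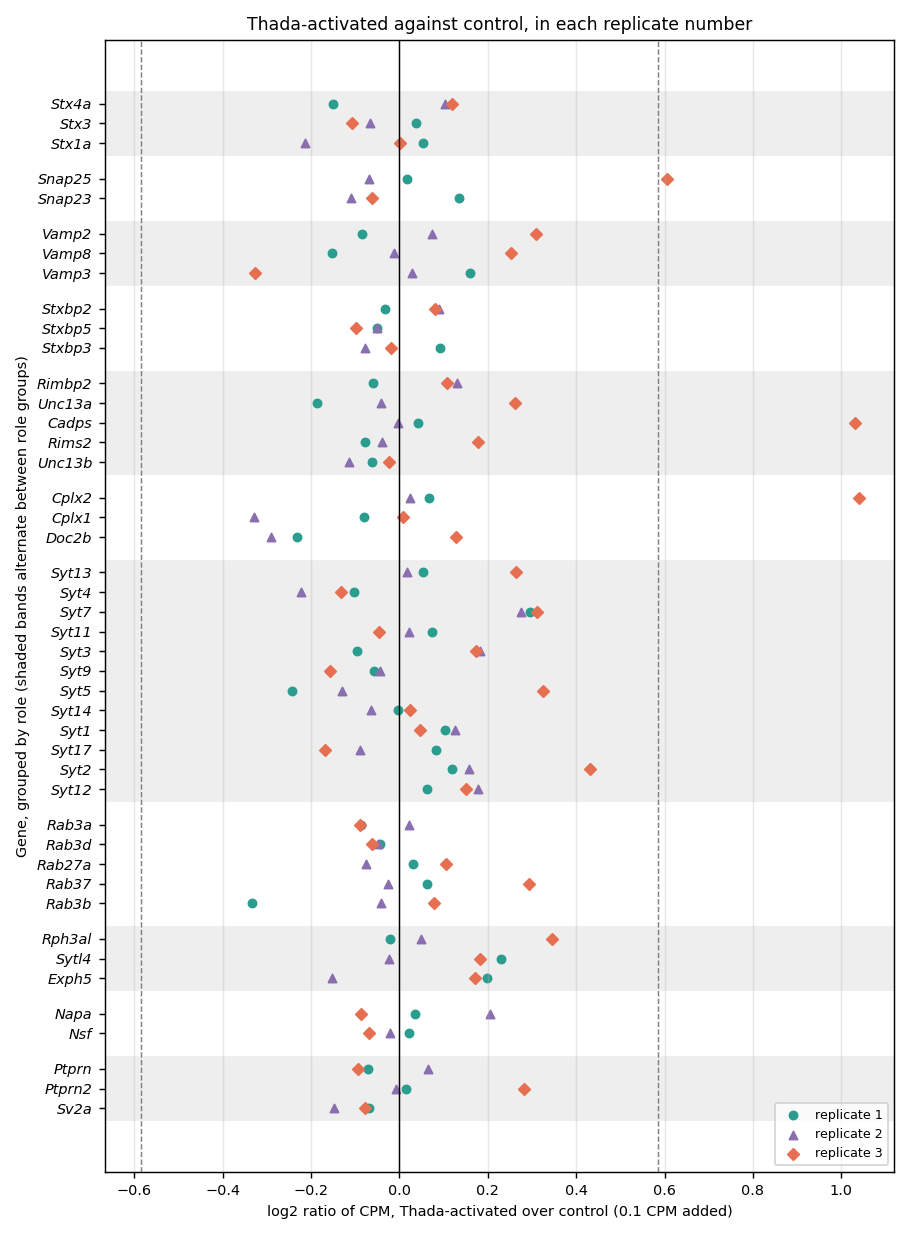
The log2 ratio of CPM in *Thada*-activated over control cells (x axis) for the 44 tested exocytosis genes grouped by role (y axis), with a symbol for each replicate number, dashed lines at a fold of 1.5, and 0.1 CPM added to each value. *Syt7* lay to the right of 0 in all 3 pairs, and *Cplx2*, *Cadps* and *Snap25* lay past the dashed line in replicate 3 only.

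Replicate 3 was compared with replicates 1 and 2 across both conditions, with the condition as a term, in 2 libraries against 4. Of the 44 genes 6 were called higher in replicate 3, against 15.7% of all tested genes, and 12 were called lower, against 15.4%. Without the fold threshold 35 of 44 genes passed, against 68.6% of all tested genes, and 36 had replicate 3 libraries that did not overlap the other 4 (15 higher and 21 lower), against 71.8%. The median log2 fold change was -0.14 for the 44 genes and 0.00 for all tested genes, and it stayed between -0.14 and -0.11 for the 44 genes with DESeq2 size factors, library totals or FPKM.

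*Cadps* had the largest fall of the 44 genes. *Cadps* (chr14:12372560-12823339) was at 81.9, 83.1 and 10.5 CPM in control and 84.3, 82.9 and 21.6 CPM in activated cells. Both replicate 3 libraries were far below the other 4, and the fall was -2.39 on the log2 scale (standard error 0.22, adjusted p of 0.000200 in edgeR), or from -2.97 to -1.96 with each library left out. *Cplx2* (chr13:54301964-54383923) was at 233, 239 and 75.4 CPM in control and 244, 243 and 155 CPM in activated cells. The replicate 3 libraries were again the lowest, at -1.11 on the log2 scale (standard error 0.27), and edgeR gave an adjusted p of 0.0281. The call of *Cplx2* was lost without activated replicate 1 or 2, where the adjusted p was 0.0511 and 0.0718 (from 3.74e-35 to 0.0718 over 13 alternatives), and its log2 fold change ranged from -1.65 to -0.65 with each library left out. *Unc13a* (chr8:71624125-71671774) was at 232, 225 and 101 CPM in control and 204, 219 and 121 CPM in activated cells. Its replicate 3 libraries did not overlap the others, and the fall in edgeR was -0.98 on the log2 scale (standard error 0.08) at an adjusted p of 1.07e-07. *Rimbp2* also fell, by 0.74 on the log2 scale, whereas *Rims2* and *Unc13b* were not called, at -0.15 and -0.05.

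Of the 12 synaptotagmins tested, 6 were called lower, against 15.4% of all tested genes, 2 were called higher, against 15.7%, and 4 were not called. *Syt13* (chr2:92915101-92956051) was at 616, 618 and 305 CPM in control and 639, 626 and 366 CPM in activated cells. Replicate 3 was the low library of both conditions, and the log2 fold change was -0.90 (standard error 0.06, adjusted p of 1.58e-08 in edgeR). *Syt5* was at 25.1, 22.2 and 9.06 CPM in control and 21.2, 20.3 and 11.4 CPM in activated cells. *Syt12*, the lowest of the tested genes, was at 1.99, 1.92 and 0.861 CPM in control and 2.08, 2.19 and 0.967 CPM in activated cells. The replicate 3 values of both genes lay below the other 4, with log2 fold changes of -1.12 (standard error 0.12) for *Syt5* and -1.16 (standard error 0.26) for *Syt12*, which was -0.36 and not called on log2(FPKM + 1). *Syt3*, *Syt9* and *Syt2* were the other called falls, from -0.77 to -0.65. *Syt17* was at 14.3, 16.6 and 35.0 CPM in control and 15.2, 15.6 and 31.1 CPM in activated cells. *Syt1* (chr10:108497650-109010980) was at 29.8, 28.6 and 56.7 CPM in control and 32.0, 31.2 and 58.6 CPM in activated cells. Both were high in replicate 3 of each condition without overlap, with log2 fold changes of 1.10 (standard error 0.08) and 0.92 (standard error 0.06) and adjusted p-values of 4.83e-08 and 1.72e-08 in edgeR. *Syt4* and *Syt7* were higher in both replicate 3 libraries at 0.50 and 0.48 on the log2 scale, under the fold threshold.

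Among the Rab GTPases *Rab37* (chr11:115091331-115162773), which resides on secretory granules, was at 37.5, 38.6 and 81.6 CPM in control and 39.1, 38.0 and 100 CPM in activated cells. *Rab3b* (chr4:108879070-108943324) was at 13.6, 13.1 and 25.0 CPM in control and 10.8, 12.7 and 26.3 CPM in activated cells. The replicate 3 libraries were above the other 4 for both genes, with log2 fold changes of 1.24 (standard error 0.07) and 1.03 (standard error 0.10) and adjusted p-values of 2.09e-09 and 3.06e-07 in edgeR. *Rab3a*, the leading isoform, was not called, with a log2 fold change of 0.07 (standard error 0.05). *Cplx1* (chr5:108518554-108550027) was at 13.9, 15.5 and 23.1 CPM in control and 13.1, 12.3 and 23.3 CPM in activated cells. *Doc2b*, a soluble calcium sensor, was at 7.56, 8.67 and 11.8 CPM in control and 6.42, 7.07 and 12.9 CPM in activated cells. Both were higher in replicate 3, at 0.76 (standard error 0.09) and 0.73 (standard error 0.12) on the log2 scale, opposite in direction to *Cplx2*. The call of *Doc2b* was lost on log2(FPKM + 1), at 0.49, and without activated replicate 3, at 0.54.

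Of the 8 SNARE genes 2 were called, both lower, against 31.1% of all tested genes called in either direction. *Snap25* (chr2:136713439-136782428) was at 216, 226 and 98.7 CPM in control and 218, 216 and 150 CPM in activated cells. Replicate 3 was the lowest library of each condition, and the log2 fold change was -0.83 (standard error 0.13, adjusted p of 0.000506 in edgeR). Without control replicate 3 it was -0.53 and under the fold threshold. *Vamp3*, a vesicle SNARE found in many cells, fell by 0.68 on the log2 scale, *Vamp2* and *Vamp8* were not called at -0.40 and -0.07, and the 3 syntaxins were not called, at 0.09 to 0.47. *Stxbp2*, *Stxbp3* and *Stxbp5* were not called, nor were the Rab effectors, *Napa*, *Nsf*, *Ptprn*, *Ptprn2* and *Sv2a*, which lay between -0.52 and 0.54.

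**Figure D3:**
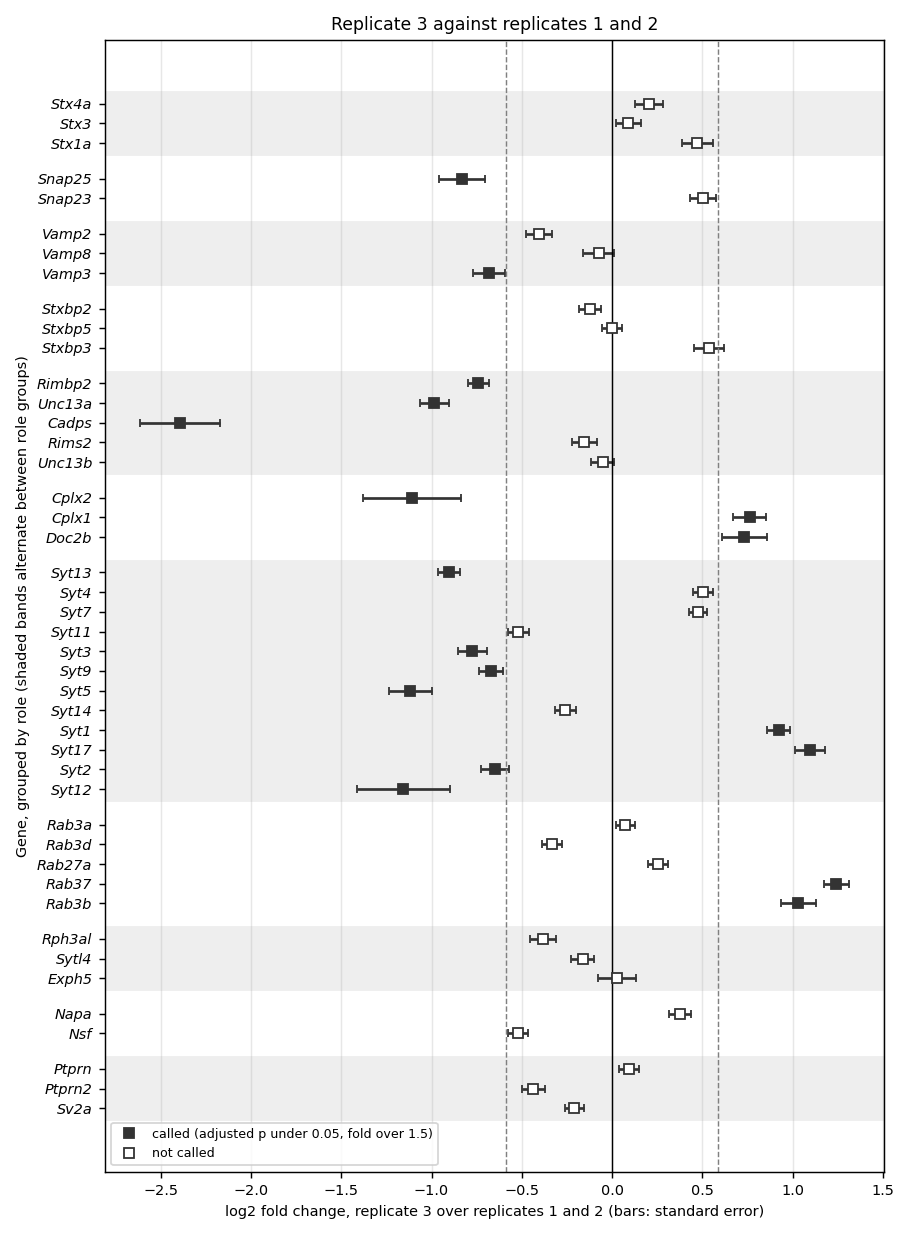
The log2 fold change of replicate 3 over replicates 1 and 2 with its standard error (x axis) for the 44 tested exocytosis genes grouped by role (y axis). Filled squares mark the 18 called genes and dashed lines a fold of 1.5. *Cadps* lay farthest to the left at -2.39 and *Rab37* farthest to the right at 1.24.

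A term for the condition by replicate 3, added after the data were seen, asked whether the condition effect in replicate 3, which rests on a single pair of libraries, differed from that in replicates 1 and 2. The single pair has no spread of its own, so the test takes its spread from replicates 1 and 2. The term was called for 3 of the 44 genes, *Cplx2*, *Cadps* and *Snap25*, against 1.81% of all tested genes, and DESeq2 called 3 as well, against 0.32% of all tested genes. With a single library of each condition in replicate 3 these calls do not measure how far such libraries vary. Activated cells were higher in replicate 3 for all 3 genes, and their values in replicates 1 and 2 differed by little between conditions.

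Other genes of the pathway were taken from a list of 64, of which 61 were in the tables and 52 were tested. Between conditions 0 of 52 were called by edgeR with or without the block and 0 by DESeq2, with 2 and 3 genes at an unadjusted p under 0.05 in edgeR without and with the block (3.85% and 5.77%, against 0.807% and 10.4% of all tested genes). The conditions did not overlap for 4 of the 52 genes, of which 1 was higher and 3 were lower in activated cells, against 5.4% of all tested genes. *Sytl2*, an effector of Rab27 chosen after its values were seen, was at 1.70, 1.34 and 2.01 CPM in control and 3.32, 2.82 and 3.53 CPM in activated cells. Its activated libraries were above all control libraries, and its log2 fold change with the block was 0.94 (standard error 0.21) with an adjusted p of 0.111 in edgeR, whereas it was called with replicate 3 as a batch term or without both replicate 3 libraries. *Napb* (β-SNAP), which acts with *Nsf* and was also chosen after its values were seen, was at 36.7, 40.9 and 43.0 CPM in control and 32.0, 31.7 and 31.7 CPM in activated cells. Its activated libraries were below all control libraries, as were those of *Napg* and *Exoc3*, and the log2 fold changes with the block were -0.33 (standard error 0.08, adjusted p of 0.122 in edgeR) for *Napb*, -0.12 for *Napg* and -0.14 for *Exoc3*. Between replicate 3 and replicates 1 and 2, 5 of the 52 genes were called higher, against 15.7% of all tested genes, and 8 lower, against 15.4%. The largest rises were those of *Rph3a*, *Vamp5*, *Rims3* and *Vamp4*, at 1.27, 1.25, 0.86 and 0.81 on the log2 scale. The largest falls were those of *Syp*, which encodes synaptophysin of the vesicle membrane, at -0.98, the exocyst gene *Exoc8* at -0.95, *Erc1* at -0.87 and *Stxbp5l* at -0.84. On log2(FPKM + 1) *Vamp5*, at 0.55, and *Stxbp5l*, at -0.53, were under the fold threshold.

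Promoters in RefSeq's table for GRCm38.p6 were matched for 39 of the 51 genes, with those on 1 chromosome left out. They are shown for the 4 genes called in replicate 3 with at least 200 of the 250 bases before the start lying outside the gene's own RefSeq span, 3 that rose (*Rab3b*, *Cplx1*, *Syt1*) and *Unc13a*, which fell. Capitals mark the motifs searched on both strands, which were CACGTG (an E-box), TGACG (part of the cAMP response element), GGGCGG (a GC box) and CCAAT (the CCAAT box).
Rab3b, chr4:108878820-108879069, plus strand: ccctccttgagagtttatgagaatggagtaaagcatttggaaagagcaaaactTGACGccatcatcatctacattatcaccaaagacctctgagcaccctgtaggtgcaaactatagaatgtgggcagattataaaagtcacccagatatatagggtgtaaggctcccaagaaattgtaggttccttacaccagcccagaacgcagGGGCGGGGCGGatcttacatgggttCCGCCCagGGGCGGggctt
Cplx1, chr5:108550028-108550277, minus strand: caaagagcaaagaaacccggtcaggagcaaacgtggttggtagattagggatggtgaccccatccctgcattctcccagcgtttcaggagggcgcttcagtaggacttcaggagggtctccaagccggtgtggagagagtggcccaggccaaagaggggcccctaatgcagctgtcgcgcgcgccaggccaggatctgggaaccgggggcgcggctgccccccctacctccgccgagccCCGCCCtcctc
Syt1, chr10:109010981-109011225, minus strand: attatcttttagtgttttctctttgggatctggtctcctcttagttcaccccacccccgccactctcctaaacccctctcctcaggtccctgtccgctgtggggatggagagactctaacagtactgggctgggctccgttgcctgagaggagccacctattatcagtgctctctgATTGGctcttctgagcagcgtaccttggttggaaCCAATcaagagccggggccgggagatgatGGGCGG
Unc13a, chr8:71671775-71672007, minus strand: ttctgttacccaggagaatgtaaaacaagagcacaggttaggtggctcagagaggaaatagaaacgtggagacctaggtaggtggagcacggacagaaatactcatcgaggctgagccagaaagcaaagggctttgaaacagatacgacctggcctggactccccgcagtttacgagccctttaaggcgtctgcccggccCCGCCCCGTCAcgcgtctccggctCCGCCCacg
The GC box occurred 4 times before *Rab3b*, 1 time before *Cplx1*, 1 time before *Syt1* and 2 times before *Unc13a*, and 32.7% of the 32851 promoter windows of 250 bases in the table held it. TGACG occurred 1 time before *Rab3b* and 1 time before *Unc13a* (17.8% of all windows), CCAAT occurred 2 times before *Syt1* (33.8% of all windows), and CACGTG was in none of the 4 (6.02% of all windows). The motifs describe these windows only.

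Some counts are uncertain. The estimated counts of *Syt11* and *Syt12* were not whole numbers in all libraries. The RefSeq spans of 7 of the 51 genes overlapped another protein-coding gene, and the sources used here do not state whether counting used strand. *Unc13a* overlaps *Colgalt1*, which had 1958, 1941 and 3041 counts in control and 2084, 2099 and 2710 counts in activated libraries and was thus high where *Unc13a* was low, and *Rab37* overlaps *Cd300lf*, which had at most 9 counts.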

How the data were processed

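Libraries of MIN6 RNA were run by the authors on a BGISEQ-500. For each library the authors deposited an estimated count per gene without normalization, and FPKM values, which scale fragments by gene length and library size. The submitters' processing notes name Bowtie2, RSEM, DESeq2 and GRCm38. The log2 fold changes, p-values and q-values of the authors' own comparison were not used. Between 91.1% and 91.9% of the estimated counts were whole and the rest were rounded.

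Counts were analysed in R 4.3.3 with edgeR 4.0.16 (filterByExpr, TMM and its quasi-likelihood test with robust dispersions) over all genes, with Benjamini-Hochberg adjustment. CPM used TMM-scaled library sizes. Alternatives were DESeq2 1.42.0, limma 3.58.1 with trend on log2(FPKM + 1), other scalings and filters, each library left out, and blocking by replicate number. The fits were tested on simulated data. Chi-square per degree of freedom was 4.30 for control replicates 1 and 2 and 1.81 for activated replicates 1 and 2, and higher for the other pairs within a condition. Libraries of the same condition thus did not hold the same counts. These values cannot show whether such libraries came from separate cultures or from separate RNA. Libraries of different conditions were not compared in this way.

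Replicate numbers were taken from the labels. After condition means were removed, libraries of the same number correlated across 12516 genes at 0.781, 0.771 and 0.905, so the numbers were taken to pair the libraries, although crossing replicates 1 and 2 gave 0.799 and 0.793. Shared replicate numbers thus set replicate 3 apart and do not separate replicates 1 and 2.

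The members, the gene lists and the comparison of replicate 3 were chosen with earlier results of these data known. Genes were named if they had the highest mean FPKM of a role (the 3 highest among synaptotagmins), were among the 8 lowest p-values between conditions in the blocked fit or were called in either fit, or were among the 6 largest called rises or falls in replicate 3, and for other exocytosis genes if called between conditions or among the 4 largest called changes in each direction in replicate 3. Other members are given by their level, range or count, and those named beyond this (*Syt3*, *Syt9*, *Vamp3*, *Rims2*, *Unc13b*, *Vamp8*) and *Sytl2*, *Napb*, *Napg*, *Exoc3* and *Snap47* were chosen after their values were seen.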

Additional observations from a re-analysis of the deposited data

Results flagged for a closer look

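The condition by replicate 3 term of edgeR, which rests on a single pair of replicate 3 libraries and takes its spread from replicates 1 and 2, passed its threshold for 3 of the 44 exocytosis genes and 2 of the 52 other exocytosis genes (1 of these 2 in DESeq2), against 1.81% of all tested genes (0.32% in DESeq2). Their values were seen before this term was added. The p-values of the term are not given, since a single pair cannot show how far replicate 3 libraries vary. The log2 fold change was larger in replicate 3 by 1.00 for *Cplx2*, by 1.02 for *Cadps* and by 0.63 for *Snap25*. In replicates 1 and 2 the log2 ratios of activated over control cells were 0.07 and 0.02 for *Cplx2*, 0.04 and -0.00 for *Cadps* and 0.02 and -0.07 for *Snap25*, against 1.04, 1.03 and 0.61 in replicate 3. Among the other exocytosis genes the difference was 0.77 for *Sv2b*, which was at 55.4, 59.5 and 55.9 CPM in control and 61.5, 59.3 and 100 CPM in activated cells, and 0.70 for *Exoc8*, which was at 27.9, 31.1 and 11.7 CPM in control and 29.3, 32.1 and 19.8 CPM in activated cells. Whether these differences exceed the spread between replicate 3 libraries was not tested, nor was their cause.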

How the results depend on the processing

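Between conditions 0 of the 44 exocytosis genes were called under any of 20 alternatives, of which 4 were chosen after seeing the data. With the replicate number as a block 0 of the 44 genes and 0 of the 52 other exocytosis genes were called, and the block changed no call of these genes. Of these 52 genes 1 was called with replicate 3 as a batch term, 1 without both replicate 3 libraries, and 1 with the block and without both replicate 3 libraries, against 42, 68 and 70 of all tested genes. The cause was not tested. Between replicate 3 and replicates 1 and 2, 35 of the 44 genes and 38 of the 52 passed with no fold threshold. That setting by construction admits smaller differences. Of the 52 genes 8 were called by limma on log2(FPKM + 1), against 13 in edgeR. Over all tested genes limma called 1421 higher and 1419 lower, against 1970 and 1923 in edgeR, so fewer calls were not particular to the 52. Why limma called fewer was not tested. The count for the 44 genes was otherwise between 16 and 18. With each library left out, where a condition keeps 2 libraries, the log2 fold change between conditions turned its sign for 5 of the 8 genes for which this was run, none of them called, and ranged from -0.013 to 0.36 for *Syt2*, from -0.35 to 0.030 for *Syt4*, from -0.18 to 0.30 for *Syt13*, from -0.056 to 0.20 for *Rph3al* and from -0.45 to 0.63 for *Rab37*. Each alternative of each gene, of each family share and of the count called for the condition by replicate 3 term was counted separately. The result was kept in 561 cases, a call was lost in 8, a share moved by more than its SD in 11 and the sign turned in 9. Kept means the same direction and side of the threshold for a gene, a move within its SD for a share, and no change for the count. Depth limits a difference for genes near the floor, where a single count is worth from 0.0563 to 0.0586 CPM.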
